A study of Mus musculus with 4 samples.

Results

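The genes described here are Col1a1, Col1a2, Col3a1, Dcn, Lum, Ogn, Igf2 and Slc6a13, all known to be expressed in fibroblasts of the meninges and of the perivascular space. They were picked by symbol, through the RefSeq accession of each array probe, and they are 8 of the 23461 genes that the arrays name. The 8 genes were put together because of how they differed between these same arrays. Their values are therefore given as a description, with no test and no p-value. They are measured by 11 probes printed as 29 spots, and all 8 were well above background on all 4 arrays, so none was lost to the filter on dim probes.

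The study hybridised RNA from whole mouse brain to 4 single-colour Agilent arrays, giving every pairing of genotype with injection 1 array. The groups were wild-type mice given phosphate-buffered saline (PBS), Nav1.8CreROSA26DTA mice given PBS, wild-type mice given lipopolysaccharide (LPS), and Nav1.8CreROSA26DTA mice given LPS. LPS, an outer-membrane component of Gram-negative bacteria, was injected into the peritoneum at 20 mg/kg and tissue was taken 12 hours later. In the Nav1.8CreROSA26DTA line Cre under the control of the Nav1.8 sodium channel gene turns on diphtheria toxin A, so that sensory neurons of this lineage, most of them nociceptors, die. The line is thus meant to remove peripheral sensory neurons, and an action of the toxin in brain cells was not tested. The labels give no age and do not say whether an array holds 1 mouse or a pool. An animal and its group therefore cannot be told apart.

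Fibrillar collagens are the load-bearing fibres of connective tissue, and in the brain they lie mainly in the meninges and around larger vessels. Type I collagen is a trimer of the Col1a1 and Col1a2 chains, and type III collagen is a trimer of Col3a1 chains. Small leucine-rich proteoglycans such as decorin, lumican and osteoglycin bind these fibrils and regulate their diameter. Meningeal fibroblasts also secrete growth factors and carry transporters between cerebrospinal fluid, blood and brain.

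A single slide and a single scan held the 4 arrays, PBS and LPS in separate rows and each genotype in its own column, so slide position and group cannot be told apart. The share of spots well above background was 66.5% to 69.5%, and 0 spots were saturated. The neuron markers, 8 of 8 well above background on every array, had summed levels between 291 and 330. The red cell markers stood apart: their summed level was 111 on the wild-type PBS array, 651 with Nav1.8CreROSA26DTA PBS, 231 with wild-type LPS and 352 with Nav1.8CreROSA26DTA LPS. Scn10a, the gene of Nav1.8, was well above background on every array. Its signal before scaling was 133 with wild-type PBS, 88.6 with Nav1.8CreROSA26DTA PBS, 669 with wild-type LPS and 1066 with Nav1.8CreROSA26DTA LPS. After scaling, Scn10a differed between genotypes by −0.33 on the PBS arrays and by 0.47 on the LPS arrays (log2). Brain RNA does not check an ablation in sensory ganglia.

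Levels below are the processed signal divided by the array's 75th percentile of signal, so that 1 is the level of a fairly bright spot. A level is comparable between arrays for 1 gene, not between genes. Differences are on the log2 scale, where 1 is 2-fold. The scanner software's own error was 10% to 10.6% of the signal for the 8 genes, which makes the combined error of a difference of 2 single spots 0.204 to 0.21. It is the root of the summed squares of the 2 spot errors, taken once, so a gap slightly above it does not settle an order. This error is technical, and with 1 array per group no difference between 2 arrays has a replicate check. In whole tissue, fewer cells of a type and less RNA per cell cannot be told apart.

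With PBS, all 8 genes were higher in Nav1.8CreROSA26DTA than in wild-type, by 0.68 to 1.97, and 5 of the 8 were at least 2-fold higher. Among all 16627 genes measured on both arrays 1.21% were at least 2-fold higher. This comparison helped to choose the genes, so nothing is read from the count. The median of the 8 was 1.37, against 0.04 over all genes measured. With LPS the same 8 genes had a median genotype difference of −0.04, 3 being higher and 5 lower, and 0 of them were 2-fold higher (background 0.829%) or lower (background 0.369%).

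**Figure D1:**
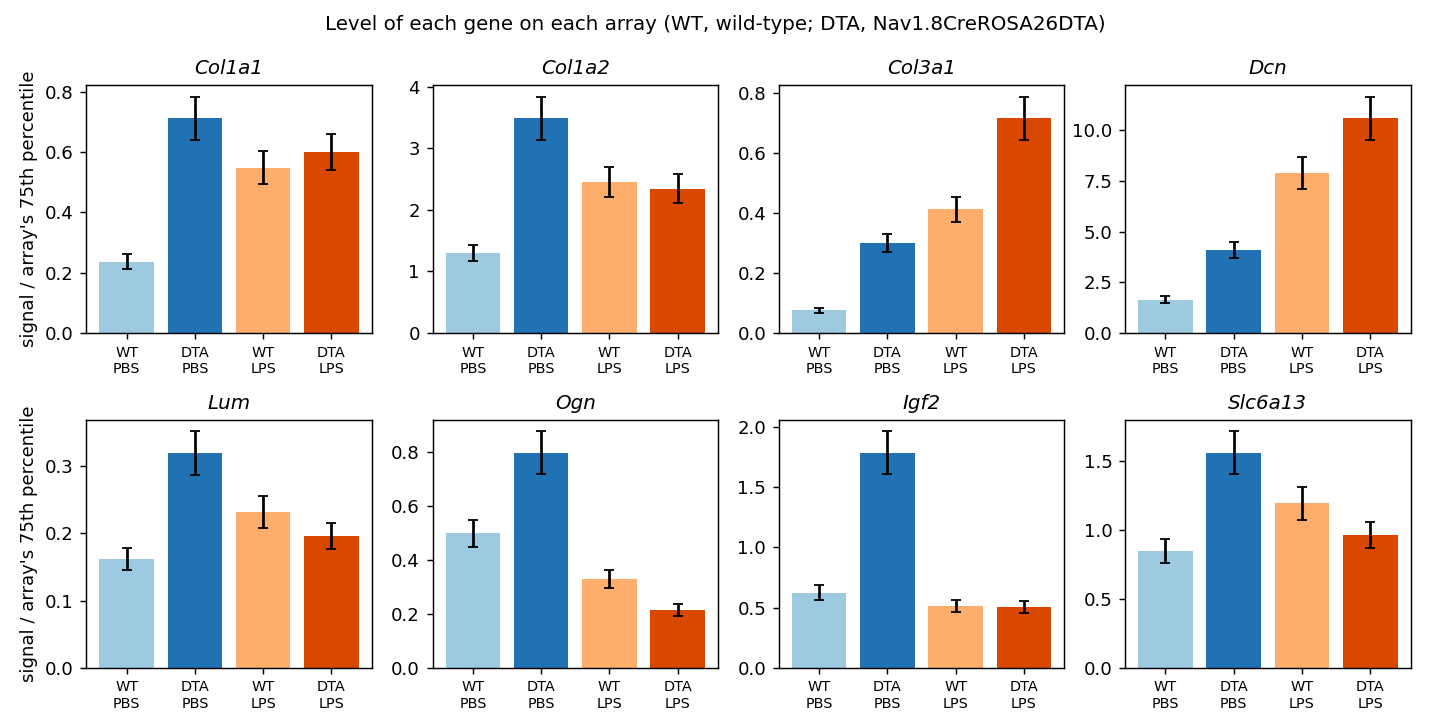
Level of each of the 8 genes on each array (signal divided by the array's 75th percentile, linear axis from 0); bars are single arrays (WT, wild-type; DTA, Nav1.8CreROSA26DTA) and error bars are the scanner software's error of the spot, not a replicate error. The wild-type PBS bar is the lowest for 6 of the 8 genes and the Nav1.8CreROSA26DTA PBS bar the highest for 6.

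The regions upstream of the genes are shown first, because the 8 genes were higher together in 1 comparison and the windows allow their sequences to be set beside each other. Of the 8 genes, 5 matched a RefSeq promoter table of build GRCm38.p6, which spans 250 bases before to 50 bases after an annotated start. The 3 with a single annotated start are printed, 5′ to 3′ on the coding strand. Col1a2 lies at chr6:4505368-4505667 on the plus strand, Col3a1 at chr1:45311288-45311587 on the plus strand and Ogn at chr13:49607765-49608064 on the plus strand. Capitals mark matches, on either strand, to 5 short motifs: the TATA element TATAAA, the CCAAT box CCAAT, the GC box GGGCGG, the AP-1 site TGANTCA and the NF-kB site.
Col1a2: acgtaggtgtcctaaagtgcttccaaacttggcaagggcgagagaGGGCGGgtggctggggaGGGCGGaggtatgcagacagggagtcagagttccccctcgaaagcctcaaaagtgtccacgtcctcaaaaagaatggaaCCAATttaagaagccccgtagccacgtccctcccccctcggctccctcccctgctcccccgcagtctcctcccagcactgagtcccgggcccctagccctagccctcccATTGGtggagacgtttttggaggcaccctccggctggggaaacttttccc
Col3a1: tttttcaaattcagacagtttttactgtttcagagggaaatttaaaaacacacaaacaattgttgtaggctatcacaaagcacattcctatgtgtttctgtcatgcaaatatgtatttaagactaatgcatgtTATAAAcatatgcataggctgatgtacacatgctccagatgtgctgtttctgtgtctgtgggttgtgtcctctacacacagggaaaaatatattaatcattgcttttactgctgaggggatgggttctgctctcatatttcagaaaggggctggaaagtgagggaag
Ogn: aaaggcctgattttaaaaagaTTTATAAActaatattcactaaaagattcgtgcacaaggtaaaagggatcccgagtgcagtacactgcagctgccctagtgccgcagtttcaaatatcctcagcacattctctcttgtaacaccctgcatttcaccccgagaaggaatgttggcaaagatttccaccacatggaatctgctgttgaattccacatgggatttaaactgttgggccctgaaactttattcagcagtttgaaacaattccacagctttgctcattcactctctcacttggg

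In the Col1a2 window the GC box was found at −205 to −200 and at −188 to −183, counted from the annotated start, and CCAAT at −109 to −105 and, on the other strand, at 1 to 5. The Col3a1 window held 1 TATAAA, at −117 to −112, and the Ogn window held TATAAA on both strands in overlapping positions between −229 and −222. The GC content was 61% for Col1a2, 37.7% for Col3a1 and 42.3% for Ogn. Over 32851 promoter windows of 27025 genes, 35.7% held the GC box, 37.4% CCAAT, 13.6% TATAAA, 7.81% the AP-1 site and 0.411% the NF-kB site. Of the 3 Slc6a13 windows, which are not printed, 1 held the NF-kB site, at −77 to −68. None of the 3 printed windows held the last 2 of these letter strings, which says only that those letters are not in these windows. None of the 5 motifs was found in all 3 windows.

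Among the fibrillar collagens, Col1a1, which encodes the alpha-1 chain of type I collagen, had a level of 0.237 on the wild-type PBS array, 0.712 with Nav1.8CreROSA26DTA PBS, 0.548 with wild-type LPS and 0.60 with Nav1.8CreROSA26DTA LPS. Wild-type PBS was the low array and Nav1.8CreROSA26DTA PBS the high one. The genotype difference was 1.59 with PBS (3.0-fold) and 0.13 with LPS, and LPS minus PBS was 1.21 in wild-type and −0.25 in Nav1.8CreROSA26DTA. These values come from a probe printed as 1 spot. Its gap of 0.13 between the LPS arrays was smaller than the combined error of 2 single spots, 0.205. The 2 probes printed as 10 spots gave 0.21 and 0.23 for this gap, of the same sign.

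Col1a1 is also the gene whose technical error is known best, because 2 of its 3 probes are printed as 10 spots each. Over these 20 spots the level ran from 0.220 to 0.267 with a median of 0.239 on the wild-type PBS array, and from 0.60 to 0.781 with a median of 0.708 with Nav1.8CreROSA26DTA PBS. It ran from 0.460 to 0.573 (median 0.511) with wild-type LPS and from 0.565 to 0.668 (median 0.596) with Nav1.8CreROSA26DTA LPS. The wild-type PBS spots did not overlap those of any other array, whereas the ranges of the LPS arrays overlapped each other and that of Nav1.8CreROSA26DTA LPS also overlapped that of Nav1.8CreROSA26DTA PBS. The coefficient of variation among 10 spots was 3.69% to 7.01%. These ranges, medians and coefficients include spots flagged as outliers, such as the highest spot with Nav1.8CreROSA26DTA LPS, which probe averages leave out. All spots of an array share 1 labelled RNA and are not replicates of a mouse.

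**Figure D2:**
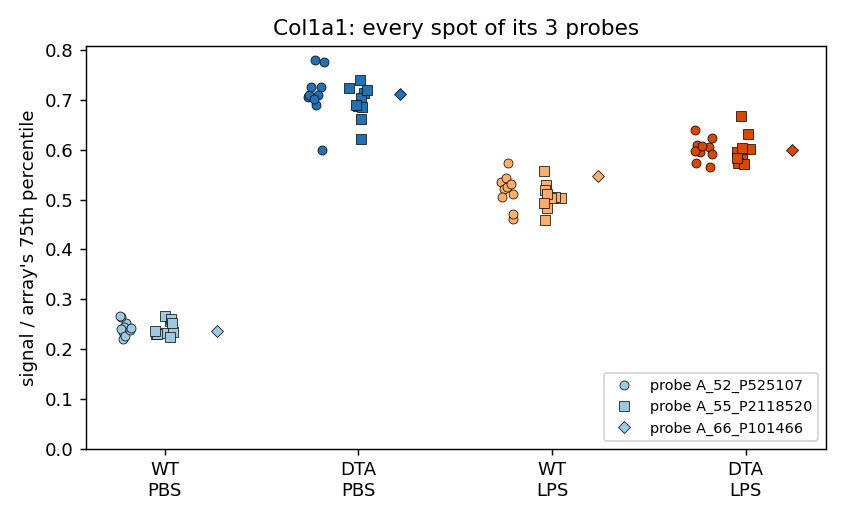
Every spot of the 3 Col1a1 probes on each array (signal divided by the array's 75th percentile, linear axis from 0; WT, wild-type; DTA, Nav1.8CreROSA26DTA); symbols stand for probes and the horizontal scatter has no meaning. The 20 spots of the replicated probes lie between 0.220 and 0.267 on the wild-type PBS array and at 0.460 or above on the other arrays.

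Col1a2, which encodes the second chain of type I collagen, had a level of 1.31 with wild-type PBS, 3.49 with Nav1.8CreROSA26DTA PBS, 2.45 with wild-type LPS and 2.34 with Nav1.8CreROSA26DTA LPS. It followed the order of Col1a1 except for the LPS arrays, whose gap of 0.07 was within the spot error of 0.204. The genotype difference was 1.42 with PBS and −0.07 with LPS, and the LPS difference was 0.91 in wild-type and −0.57 in Nav1.8CreROSA26DTA. The root mean square distance between the centred profiles of Col1a1 and Col1a2 over the 4 arrays was 0.181, the second smallest of any pair among the 8.

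Col3a1, the chain of type III collagen that is abundant in pliable tissue and in vessel walls, had a level of 0.0761 with wild-type PBS, 0.299 with Nav1.8CreROSA26DTA PBS, 0.412 with wild-type LPS and 0.715 with Nav1.8CreROSA26DTA LPS. Each level in this order was above the one before, and every step exceeded the spot error of 0.204 to 0.21. Its genotype differences were 1.97 with PBS and 0.79 with LPS. Its LPS differences were 2.44 in wild-type and 1.26 in Nav1.8CreROSA26DTA, so unlike the type I chains it was higher with LPS in both genotypes. Its wild-type PBS value rests on a processed signal of 46.6, which was still flagged well above background.

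Among the small leucine-rich proteoglycans, Dcn, which encodes decorin, a binder of collagen fibrils and of TGF-beta, had a level of 1.64 with wild-type PBS, 4.10 with Nav1.8CreROSA26DTA PBS, 7.90 with wild-type LPS and 10.6 with Nav1.8CreROSA26DTA LPS. Both LPS arrays lay above both PBS arrays, and within each injection Nav1.8CreROSA26DTA was the higher array. The LPS difference was 2.27 in wild-type (4.81-fold) and 1.37 in Nav1.8CreROSA26DTA (2.58-fold), and the genotype difference was 1.32 with PBS and 0.42 with LPS. Dcn and Col3a1 were the only members with this order, and their profiles were 0.266 apart.

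Lum encodes lumican, a keratan sulphate proteoglycan that is the neighbour of Dcn on chromosome 10. Its level was 0.162 with wild-type PBS, 0.320 with Nav1.8CreROSA26DTA PBS, 0.232 with wild-type LPS and 0.196 with Nav1.8CreROSA26DTA LPS. Nav1.8CreROSA26DTA PBS was the high array and wild-type PBS the low one. All 3 steps between neighbouring arrays were larger than the spot error of 0.207 to 0.208. The smallest, 0.24 between the LPS arrays, was so only slightly and does not settle their order. The genotype difference was 0.98 with PBS and −0.24 with LPS, and the LPS difference was 0.52 in wild-type and −0.70 in Nav1.8CreROSA26DTA. Although Dcn and Lum are adjacent genes, their LPS differences in Nav1.8CreROSA26DTA had opposite signs. The next genes of this cluster, Kera and Epyc, were well above background on no array.

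Ogn, which encodes osteoglycin (mimecan), had a level of 0.499 with wild-type PBS, 0.798 with Nav1.8CreROSA26DTA PBS, 0.330 with wild-type LPS and 0.216 with Nav1.8CreROSA26DTA LPS. Both LPS arrays lay below both PBS arrays, the reverse of Dcn. The genotype difference was 0.68 with PBS and −0.61 with LPS, and LPS minus PBS was −0.60 in wild-type and −1.89 in Nav1.8CreROSA26DTA. Ogn and Col3a1 were the most distant pair of the 8, with profiles 1.69 apart. Omd (osteomodulin), the neighbour of Ogn on chromosome 13, also had a higher level in Nav1.8CreROSA26DTA with PBS (0.45), a lower one with LPS (−0.37), and LPS differences of −0.95 in wild-type and −1.77 in Nav1.8CreROSA26DTA. Aspn, the next gene of that cluster, was well above background on no array.

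Igf2 encodes insulin-like growth factor 2, an imprinted fetal growth factor that stays expressed in the meninges and choroid plexus of the adult brain. Its level was 0.622 with wild-type PBS, 1.78 with Nav1.8CreROSA26DTA PBS, 0.511 with wild-type LPS and 0.503 with Nav1.8CreROSA26DTA LPS. Nav1.8CreROSA26DTA PBS alone was high, and the gap of 0.02 between the LPS arrays was within the spot error. The genotype difference was 1.52 with PBS and −0.02 with LPS, and the LPS difference was −0.29 in wild-type and −1.83 in Nav1.8CreROSA26DTA. A second Igf2 probe gave 1.37, −0.18, −0.22 and −1.77 for the same 4 differences, all of the same sign as the first probe.

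Slc6a13 encodes GAT2, a transporter of GABA and taurine that in brain is found mainly in the leptomeninges. Its level was 0.849 with wild-type PBS, 1.56 with Nav1.8CreROSA26DTA PBS, 1.20 with wild-type LPS and 0.964 with Nav1.8CreROSA26DTA LPS. The order was that of Lum, and the profiles of these 2 genes were the closest pair of the 8 at 0.0424. The genotype difference was 0.88 with PBS and −0.31 with LPS, and the LPS difference was 0.49 in wild-type and −0.69 in Nav1.8CreROSA26DTA. Nav1.8CreROSA26DTA LPS and wild-type PBS, the lowest arrays, differed by 0.18, which is within the spot error of 0.204.

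**Figure D3:**
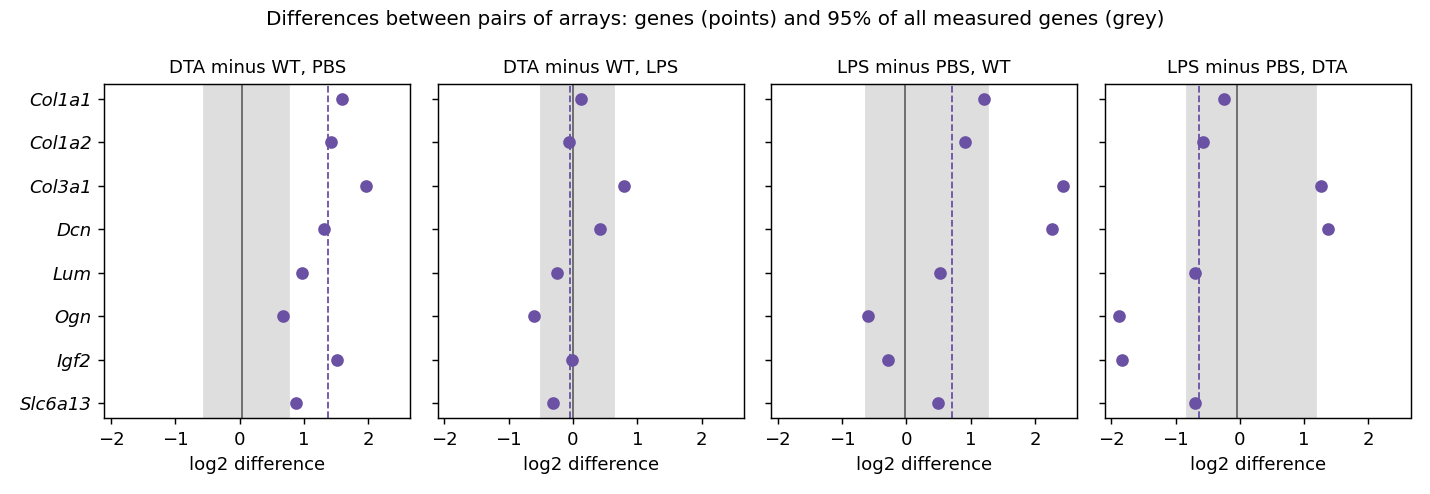
Log2 difference of each gene (points) in the 4 comparisons of 2 arrays (WT, wild-type; DTA, Nav1.8CreROSA26DTA); the dashed line is the median of the 8, the solid line the median of all measured genes and the grey band holds 95% of all measured genes. In the PBS genotype comparison the dashed line stands at 1.37 and 7 of the 8 points lie right of the band, while in the LPS genotype comparison it stands at −0.04.

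Compared across the injections, 6 of the 8 genes were higher with LPS than with PBS in wild-type, 3 of them at least 2-fold (background 3.41% of 16494 genes), 0 were at least 2-fold lower (background 0.618%), and the median was 0.71. In Nav1.8CreROSA26DTA 2 of the 8 were higher and 6 lower, with 2 at least 2-fold higher (background 3.1%) and 2 at least 2-fold lower (background 1.42%), and the median was −0.63. Col1a1, Col1a2, Lum and Slc6a13 were higher with LPS in wild-type and lower in Nav1.8CreROSA26DTA. Col3a1 and Dcn were higher, and Ogn and Igf2 lower, in both genotypes. The LPS difference was smaller or more negative in Nav1.8CreROSA26DTA for all 8, by 0.90 to 1.54, and 7 of the 8 response differences were at least 2-fold (background 1.53% of 16244 genes). Since each array enters more than 1 of these comparisons, they are not independent: the wild-type PBS array lies in both the PBS genotype comparison and the wild-type LPS comparison, and nothing is read from the likeness of the comparisons.

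**Figure D4:**
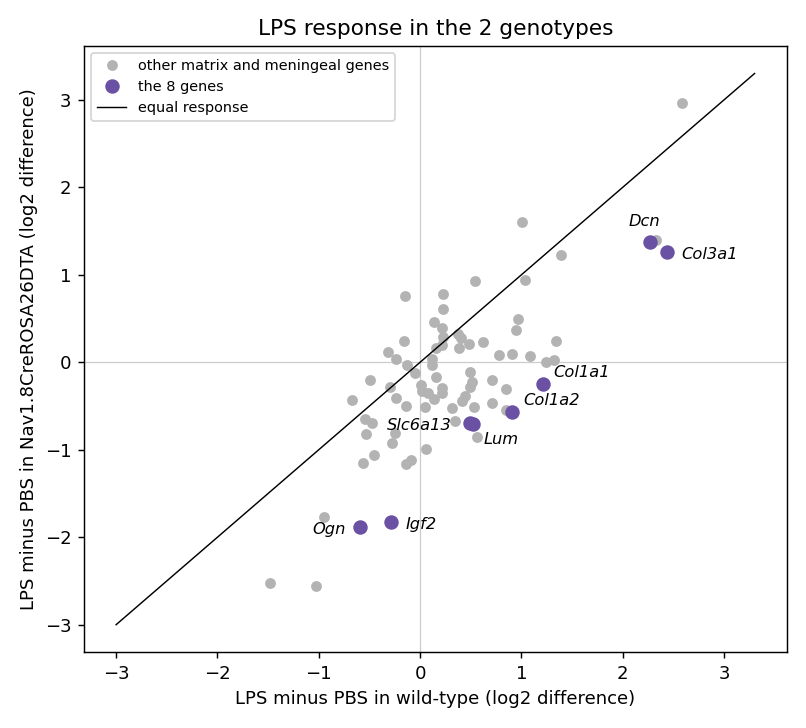
LPS minus PBS in Nav1.8CreROSA26DTA against the same in wild-type (log2 differences of single arrays) for the 8 genes and for 74 other matrix and meningeal genes measured on all 4 arrays; the line marks equal responses. All 8 genes lie below the line, Dcn and Col3a1 at the upper right and Ogn and Igf2 at the lower left.

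By array, wild-type PBS was the lowest of the 4 for 6 of the 8 genes (Ogn and Igf2 were the exceptions), and Nav1.8CreROSA26DTA PBS was the highest for 6 (Col3a1 and Dcn were the exceptions). Of the 74 other matrix and meningeal genes measured on every array, wild-type PBS was lowest for 37 (50%) and highest for 1 (1.35%), whereas over all 16244 genes it was lowest for 25% and highest for 23.2%. Nav1.8CreROSA26DTA PBS was highest for 35 of these 74 (47.3%), against 34.4% of all genes.

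Other genes of the same tissue and pathways were described from 8 lists. The 5 lists of matrix and fibroblast genes held 86 genes beside the 8, of which 85 were on the array. With PBS, 64 of the 76 measured were higher in Nav1.8CreROSA26DTA and 12 lower, and 6 were at least 2-fold higher (background 1.21%). The share of all genes that were higher or lower by any amount is not given here, for these counts or for those of single lists below. Their median was 0.37 (all genes 0.04). With LPS the median genotype difference was −0.03 (all genes 0.004). The LPS difference had a median of 0.21 in wild-type and −0.18 in Nav1.8CreROSA26DTA (all genes −0.02 and −0.04). The response was lower in Nav1.8CreROSA26DTA for 58 of 74 genes, with a median of −0.45 (all genes −0.03). These shifts were in the direction of the 8 genes and smaller, and no test of the lists was made.

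For genes outside the 8, effects averaged over both genotypes or both injections were tested with limma over 17132 genes. For LPS, 10 of 77 matrix and fibroblast genes rose and 9 fell (over all genes, 5.62% rose and 4.54% fell), and the median was 0.03. With an array left out, a fit of both factors would have no residual degrees of freedom, so those fits held only the term of the effect, and calls lost in them are not due to the left-out array alone. A fit of that term alone on all 4 arrays kept 8 of the 19 calls, and 3 held whichever array was left out. Without Nav1.8CreROSA26DTA LPS the counts were 2 rising and 1 falling, without Nav1.8CreROSA26DTA PBS 6 and 2, without wild-type LPS 4 and 3, and without wild-type PBS 3 and 6. For genotype, 1 of the 77 passed, Cldn11 (0.83 ± 0.11, adjusted p = 0.0201), which forms tight junctions of the arachnoid and of myelin (over all genes, 0.304% were higher and 0.105% lower). That call also ended in limma with genotype as the only term on all 4 arrays (adjusted p = 1), and with any array left out from that fit (adjusted p = 0.879 to 1).

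Spp1, Cyp1b1 and Slc47a1 kept their LPS calls with each array left out. Spp1, which encodes the secreted phosphoprotein osteopontin, rose by 2.77 ± 0.12 (adjusted p = 1.28e-06), with differences of 2.58 in wild-type and 2.96 in Nav1.8CreROSA26DTA. Cyp1b1, a cytochrome P450 of vascular and meningeal cells, rose by 1.86 ± 0.20 (adjusted p = 0.000409). Slc47a1, the organic cation exporter MATE1 found in meningeal fibroblasts, had a log2 effect of −2.0 ± 0.24, a fall (adjusted p = 0.00074). The meningeal marker list, 25 genes measured, had 3 rising and 3 falling genes for LPS. Its median genotype difference was 0.51 with PBS, where 23 of 25 were higher, and −0.20 with LPS, and the response was lower in Nav1.8CreROSA26DTA for 22 of 25. Slc6a20a (0.98) and Slc13a4 (0.97), an amino acid and a sulphate transporter, had its largest PBS genotype differences, and Igfbp6 (−0.08) and Spp1 (−0.11) its smallest.

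Of 12 other collagens measured with PBS, 6 were higher and 6 lower in Nav1.8CreROSA26DTA, with a median of −0.01 (0.12 with normexp background correction) and 0 at least 2-fold apart. Col8a2, a short-chain collagen of basement membranes, stood at 0.82 and Col6a3, a chain of microfibrillar type VI collagen, at 0.71, whereas Col12a1 stood at −0.27 and Col11a1 at −0.31. Col5a2, the neighbour of Col3a1 on chromosome 1 and a partner of type I collagen in fibrils, stood at −0.13 with PBS and was well above background on 3 arrays. For LPS, Col5a3 (1.31 ± 0.19, adjusted p = 0.00237), Col8a1 (0.50 ± 0.13, adjusted p = 0.0479) and Col6a1 (0.35 ± 0.10, adjusted p = 0.0497) rose and Col5a1 (−0.56 ± 0.11, adjusted p = 0.014) fell, and each of these calls ended in at least 1 of the fits with an array left out. With LPS as the only term on all 4 arrays, Col5a3 passed (adjusted p = 0.0215) and Col8a1, Col6a1 and Col5a1 did not (adjusted p = 0.124, 0.0917 and 0.0607).

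Of the small leucine-rich proteoglycans beside Dcn, Lum and Ogn, 6 were measured, and all 6 were higher with PBS in Nav1.8CreROSA26DTA, with a median of 0.36. Fmod, which encodes fibromodulin, a close relative of lumican, had the largest difference at 1.34 with PBS against −0.19 with LPS. With LPS the log2 effect was −1.79 ± 0.29 for Fmod (adjusted p = 0.00467) and −1.36 ± 0.23 for Omd (adjusted p = 0.0061), both falls, and 0 rose. Either call was lost with 2 of the 4 arrays left out in turn, the adjusted p reaching 0.147 for Fmod and 0.109 for Omd. Ecm2 (0.06) and Podn (0.03) had the smallest PBS genotype differences of the 6.

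Genes for collagen synthesis and processing, 15 measured with PBS, had a median genotype difference of 0.26, with 12 higher. Loxl1, a cross-linking lysyl oxidase, stood at 1.0 and Adamts2, which removes the N-propeptide of procollagen, at 0.75, whereas the prolyl hydroxylase subunit P4ha1 stood at −0.44 and the procollagen enhancer Pcolce2 at −0.38. For LPS, Serpinh1, the collagen chaperone HSP47, rose by 0.73 ± 0.15 (adjusted p = 0.0145), with an adjusted p of up to 0.42 when an array was left out. Lox also passed as rising (adjusted p = 0.00102), but its wild-type PBS spot was not well above background and the adjusted p reached 0.122 when an array was left out, so no size is given.

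Elastic fibre and matrix glycoprotein genes had a median PBS genotype difference of 0.39, with 17 of 18 higher. Fbln2 (fibulin-2) stood at 1.27 and Eln (elastin) at 1.15, and Ltbp1, a TGF-beta binding protein, at 0.09 and Tnxb (tenascin-X) at −0.39. For LPS, Postn (periostin) rose by 1.31 ± 0.25 (adjusted p = 0.01) and Ecm1 by 0.99 ± 0.11 (adjusted p = 0.000376), while Fbln2 (−0.86 ± 0.17, adjusted p = 0.014), Fn1, the gene of fibronectin (−0.76 ± 0.14, adjusted p = 0.00773), and Ltbp1 (−0.59 ± 0.15, adjusted p = 0.0363) fell. None of these 5 held in all 4 fits with an array left out.

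The insulin-like growth factor list around Igf2 had a median PBS genotype difference of 0.05, with 6 of 12 higher. Igfbp3 and Igfbp2, binding proteins that carry these factors, stood at 1.12 and 0.70, and the RNA-binding proteins Igf2bp2 and Igf2bp3 at −0.32 and −0.44. The receptors Igf1r, Igf2r and Insr stood at −0.20, 0.22 and −0.03. Igfbp7 rose with LPS by 1.25 ± 0.11 (adjusted p = 0.000134) and held with each array left out. H19, the noncoding RNA of the same imprinted locus as Igf2, was not well above background with wild-type PBS. Its adjusted p was 0.0139 for LPS and 0.0481 for genotype, and both calls ended in limma with the effect as the only term, on all 4 arrays (adjusted p = 0.358 and 1) and with any array left out.

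In the list of GABA transport and breakdown around Slc6a13, the median PBS genotype difference was 0.06. Slc6a12, the betaine and GABA transporter BGT1 and the neighbour of Slc6a13 on chromosome 6, stood apart from the rest of its list at 0.91 with PBS and −0.62 with LPS, with LPS differences of 1.43 in wild-type and −0.10 in Nav1.8CreROSA26DTA. The GABA synthesis genes Gad1 and Gad2 stood at −0.25 and 0.02. For LPS, the taurine transporter Slc6a6 fell by 0.41 ± 0.10 (adjusted p = 0.0349), with an adjusted p of up to 0.324 when an array was left out. On the other side of Slc6a13, Usp18, an interferon-induced protease, stood at 0.93 with PBS and −0.20 with LPS.

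TGF-beta ligands, receptors and targets, regulators of collagen genes in fibroblasts, had a median PBS genotype difference of 0.20, with 9 of 12 higher and 0 at least 2-fold apart. Tgfb1, Tgfb2 and Tgfb3 stood at 0.17, 0.19 and −0.12. For LPS, Tgfbi (1.24 ± 0.12, adjusted p = 0.000195) and Ccn1 (0.74 ± 0.18, adjusted p = 0.0312) rose and Tgfbr1 (−0.67 ± 0.13, adjusted p = 0.0103) fell, and among these 3 genes only Tgfbi held with each array left out.

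Markers of other cell types moved with the 8 genes to different degrees. Border macrophages, which lie in the meninges and perivascular space beside fibroblasts, had a median PBS genotype difference of 0.95 over 7 of 8 genes, a median of −0.16 with LPS, and LPS medians of 0.82 in wild-type and −0.29 in Nav1.8CreROSA26DTA. Their summed level was 1.36, 2.34, 2.25 and 2.12 on the wild-type PBS, Nav1.8CreROSA26DTA PBS, wild-type LPS and Nav1.8CreROSA26DTA LPS arrays. Of these 7 genes with PBS, Cbr2 stood at 1.05 and Mrc1, Cd163, Pf4 and F13a1 at 0.98, 0.95, 0.95 and 0.93. Lyve1 and Stab1 were lower, at 0.49 and 0.40.

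Red cell markers had a median PBS genotype difference of 2.86 over 7 of 9 genes and 0.65 with LPS, with LPS medians of 1.25 in wild-type and −1.02 in Nav1.8CreROSA26DTA, and all 6 that were measured on every array were lowest with wild-type PBS and highest with Nav1.8CreROSA26DTA PBS. Epb42 was well above background on no array, and haemoglobin probes share sequence between paralogs. The mural cell median was 0.32 with PBS (summed levels 15.4, 20.3, 17.1 and 16.7). Tagln and Myh11 were highest at 1.01 and 0.80, and Kcnj8 and Higd1b lowest at −0.15 and −0.14. Between them lay Vtn (0.53), Cnn1 (0.46), Pdgfrb (0.35), Des (0.32), Notch3 (0.32), Rgs5 (0.29), Acta2 (0.23) and Abcc9 (−0.07). The endothelial median was 0.21 (summed levels 29.6, 32.2, 50.1 and 43.9). The part of these cells or of blood in the differences of the 8 genes was not tested.

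Choroid plexus markers had a median PBS genotype difference of 0.46 over 8 of 12 genes, and summed levels of 18.4, 24.0, 20.4 and 27.5, of which Enpp2, which oligodendrocytes also express, made up 18.0, 23.4, 18.9 and 25.8. Slc4a5 and F5 were well above background on no array, and Ttr and Otx2 on 1 each. The ependymal median was 0.48 with PBS and 0.51 with LPS, with summed levels of 2.28, 2.97, 2.06 and 2.81. For tissues that a brain dissection could carry along, the median with PBS was −0.01 for bone and cartilage (8 of 10 measured, Ibsp and Col10a1 on no array). It was 0.07 for skeletal muscle (6 of 8, Ckm on no array) and 0.25 for Schwann cells (5 of 8, Pmp2 on no array). For olfactory mucosa it was 0.04 (5 of 6, Bpifb9b on no array). Whether the signals of these lists came from brain cells or from such tissues was not tested. Of 8 pituitary genes 4 were well above background on no array. The hormone genes Prl (prolactin) and Gh (growth hormone) were not well above background with wild-type PBS and were highest with Nav1.8CreROSA26DTA PBS, at least 16.5-fold and 15.4-fold higher. In the order wild-type PBS, Nav1.8CreROSA26DTA PBS, wild-type LPS and Nav1.8CreROSA26DTA LPS, the processed signals were 2.87, 105, 50.4 and 33.1 for Prl and 3.47, 98.4, 17.9 and 35.5 for Gh. Col1a1, Col1a2, Lum and Slc6a13 had the same lowest and highest arrays, as did the 6 red cell genes measured on every array. Over all genes, wild-type PBS was lowest for 25% and Nav1.8CreROSA26DTA PBS highest for 34.4%. The share of all genes with both is not given here. Pomc stood at 0.42 with PBS and 0.80 with LPS, and Lhb at 0.26 and −0.06. The part of pituitary RNA in the differences of the 8 genes was not tested. The PBS medians of neurons, bone and cartilage, olfactory mucosa, the other collagens and the insulin-like growth factor list each changed sign under at least 1 other scaling or background correction, so they have no settled direction. Neurons stood at −0.01, astrocytes at 0.23, microglia at 0.22 and oligodendrocytes at 0.50 with PBS, and oligodendrocytes stood at 0.96 with LPS, where the 8 genes had −0.04.

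**Figure D5:**
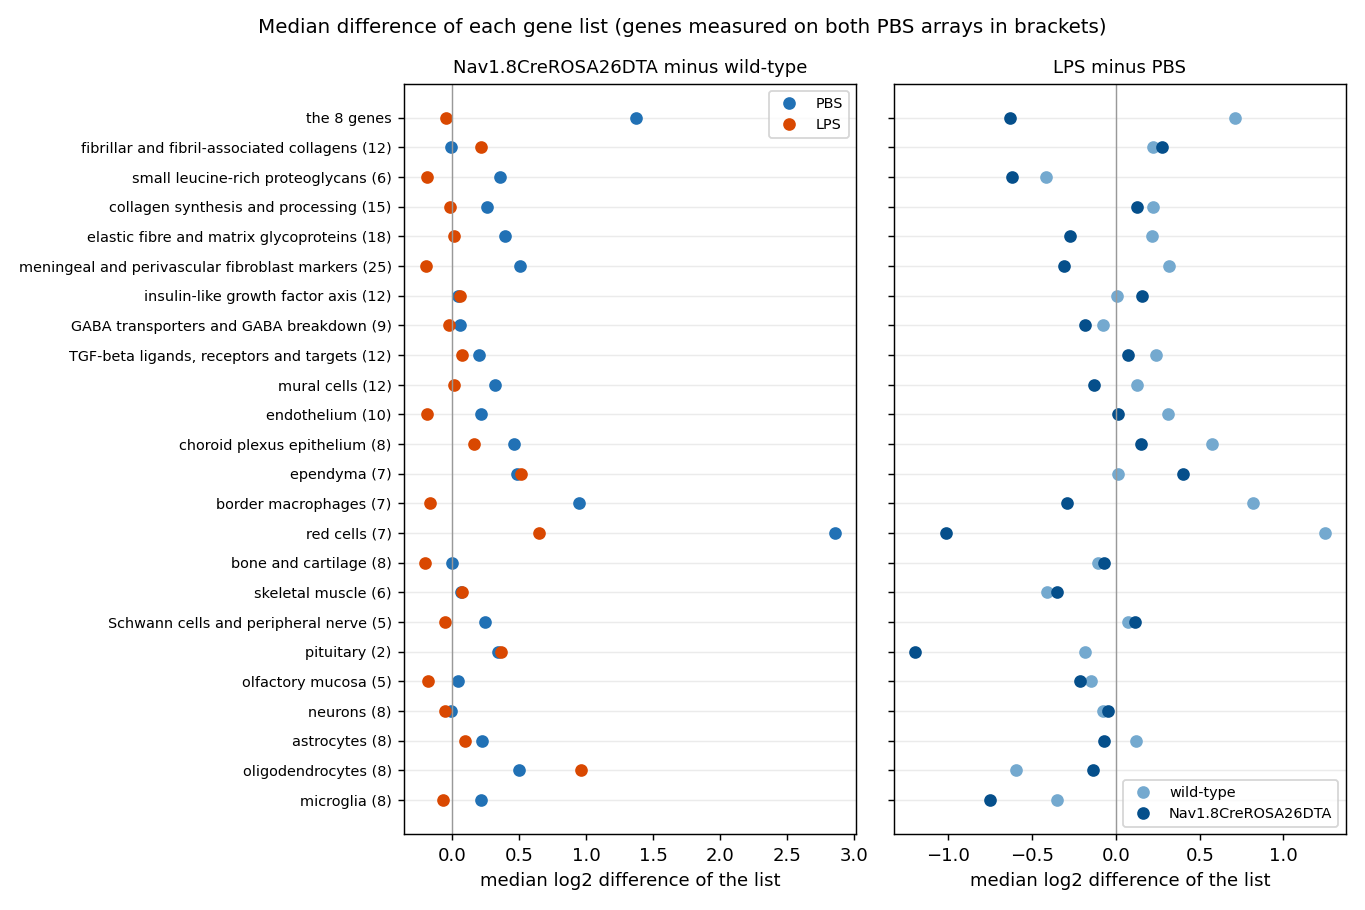
Median log2 difference of the 8 genes and of each pathway and marker list, for genotype with PBS and with LPS (left) and for LPS in each genotype (right); each point is a median over genes between single arrays, with no error. The 8 genes stand at 1.37 with PBS and −0.04 with LPS, border macrophages at 0.95 and −0.16, and neurons at −0.01 and −0.06.

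Finally, 16236 other genes measured on all 4 arrays were ranked by the root mean square distance of their centred log2 profile from the median profile of the 8, which stood at −0.62, 0.54, 0.11 and −0.06 in the order used above. The 10 nearest were Ms4a7 (0.0304), Twist2 (0.0476), Mfap5 (0.0601), Gpr101, Fibcd1, Tas2r113, Pcsk4, Svep1, Clec4n and Hspb7 (0.102). Ms4a7 is a membrane protein of macrophages, Twist2 a transcription factor of mesenchymal cells, and Mfap5 a microfibril protein already counted among the matrix genes. Ms4a7 had a PBS genotype difference of 1.14, Twist2 of 1.15 and Mfap5 of 1.12. With 4 points to a profile and so many candidates, near matches of this kind carry no statement about shared control.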

How the data were processed

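Total RNA of whole mouse brain was read on 4 single-colour Agilent arrays, 1 per group, and groups were taken from the labels. The deposited intensity, the processed signal, is background-subtracted and detrended within an array by Agilent Feature Extraction, version 12.0.3.1 per the file headers and 11.0.1.1 per the submitters' processing notes. The file headers name mm9 for the design grid. The authors' value table also holds linear intensity: each column is the processed signal times 1 factor (1.82, 2.09, 1.83 and 1.57; column medians 97.2, 91.4, 103 and 102). The origin of these factors was not stated in the sources used here.

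From the deposited intensity log2 values were computed after dividing the processed signal by its 75th percentile on that array (612.2, 514.5, 633.6 and 726.5), without the 81 to 96 outlier spots per array, and spots of a probe were averaged. Of 56605 probes, 33767 (59.7%) were named through RefSeq accessions with a table of GRCm38.p6. A gene was represented by its probe well above background on most arrays, then by its highest mean. Over 300 probes printed as 10 spots the spot SD was 0.0418 to 0.0456 (log2), and over 5991 genes with several probes the median SD between probes was 0.0986 to 0.154 for the differences. Effects of LPS and of genotype were fitted additively with limma 3.58.1 in R 4.3.3 (intensity trend) over 17132 genes well above background on at least 2 arrays, with Benjamini-Hochberg adjustment, a threshold of 0.05, 1 residual and 7.99 prior degrees of freedom. After ± stands limma's standard error. The labels name no separate animals. The 1 residual degree of freedom is the difference of LPS responses between the genotypes, and the prior degrees of freedom come from all genes tested. The p-values therefore measure no spread between arrays of the same group. The method was tested on simulated data with independent noise and LPS effects equal in both genotypes. That test does not cover LPS responses that differ between genotypes. Python 3.11.15 and matplotlib 3.10.9 drew the plots.

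The 8 genes, the 8 pathway lists and the 15 marker lists were chosen with earlier results of these data known. Named from each list were its 2 largest and 2 smallest PBS genotype differences and genes that passed limma. The 10 genes nearest the median profile and Scn10a were also named. Other genes were named after their values were seen, as neighbours, receptors or ligands of the members. Alternatives covered scaling, background correction, the filter, probe choice, the intensity trend and left-out arrays, whose fits held only the term of the effect. That term alone on all 4 arrays was added after seeing the data. Some list genes are not reported here.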

Additional observations from a re-analysis of the deposited data

Results flagged for a closer look

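Several of the 8 genes moved in opposite directions in the groups of 1 array each, and in no case was the difference tested. LPS minus PBS was above 0 in wild-type and below 0 in Nav1.8CreROSA26DTA for Col1a1 (1.21 and −0.25), Col1a2 (0.91 and −0.57), Lum (0.52 and −0.70) and Slc6a13 (0.49 and −0.69).

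Nav1.8CreROSA26DTA minus wild-type was above 0 with PBS and below 0 with LPS for Col1a2 (1.42 and −0.065), Lum (0.98 and −0.24), Ogn (0.68 and −0.61), Igf2 (1.52 and −0.022) and Slc6a13 (0.88 and −0.31). The LPS values of Col1a2 and Igf2 lie within the combined spot error of 0.204 to 0.205, so their sign is not resolved. That of Lum is only slightly larger than its combined spot error of 0.208.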

How the results depend on the processing

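Over 8 alternative settings the median of the 8 genes stayed between 1.26 and 1.40 for genotype with PBS, −0.08 and −0.04 for genotype with LPS, 0.61 and 0.77 for LPS in wild-type, −0.70 and −0.55 for LPS in Nav1.8CreROSA26DTA, and −1.29 and −1.02 for the difference of the responses. With normexp on the median spot signal, added after seeing the data because the planned mean-signal column is not in the files used here, the medians moved to 1.26 (genotype with PBS), 0.61 (LPS in wild-type) and −1.02 (difference of responses). Of 320 single values 18 moved by more than the median SD between probes of a gene, and 1 changed sign, Col1a2 for genotype with LPS (0.02 with normexp).

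The 70 genotype calls became 150 (median scaling), 241 (quantile), 29 (cyclic loess), 383 (normexp), 28 (deposited table), 958 (no filter), 28 (mean over probes), 0 (no intensity trend), 0 with genotype as the only term on all 4 arrays (added after seeing the data) and 0 to 0 with an array left out. In limma without the trend 1476 genes had an unadjusted p under 0.05, with the only-term fit on all 4 arrays 516, and with an array left out 239 to 790. The 1740 LPS calls became 3150 without the filter, 430 without the trend, 875 with LPS as the only term on all 4 arrays and 461 to 625 with an array left out. LPS calls split 963 higher to 777 lower in the main setting, 947 to 1192 with median scaling, 1016 to 1165 with normexp, 974 to 463 with cyclic loess and 1043 to 433 with the deposited table. The cause was not tested.

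No paired analysis was possible because each group holds 1 array and the labels number no replicates. A slide block was not run, since all arrays share 1 slide and scan. Each fit with an array left out holds only the term of the effect, so the other factor is mixed into it and its counts are to be set beside the only-term fit on all 4 arrays. It also assumes that a lone array varies like the others.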
